A study of Mus musculus with 16 samples.

Results

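Late activity-induced effectors, genes that neurons switch on hours after electrical activity, were followed in olfactory bulb mitral cells of mice. The 6 genes were Bdnf, Inhba, Nptx1, Nptx2, Nrn1 and Homer1, and every array probe whose RefSeq record named one of them was taken, whatever its signal. This gave 11 of 55598 probes and 6 of the 20124 genes named on the array. The pools were Kir2.1 cells and control cells at postnatal day 6 (P6), and Kir2.1 cells and control cells at postnatal day 3 (P3), all of ICR mice, with 4 pools of 10 cells in each of the 4 groups. Kir2.1 is an inward rectifier potassium channel that holds neurons near rest. Kir2.1 cells carried pCAG-EYFP with pCAG-Kir2.1 and control cells carried pCAG-EYFP alone, both introduced by electroporation in utero at embryonic day 12, so that all groups share the electroporation and the EYFP reporter. The CAG promoter drives expression in many cell types, and fluorescent cells were picked by hand. A picked cell was kept where PCR found EYFP and Pcdh21, the gene now named Cdhr1. The labels call the pools biological replicates but name no number of animals, so each p-value reflects how far the pools of a group spread, which may be technical in part.

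Activity opens calcium channels, calcium signals reach the factor CREB and other regulators in the nucleus, and a first wave of immediate early genes is followed by effectors that are secreted or act at synapses. Bdnf encodes a neurotrophin that signals through the receptor TrkB, and Inhba encodes the subunit of activin A, a ligand of the TGF-beta family. Nptx1 and Nptx2 encode secreted pentraxins that gather AMPA-type glutamate receptors at synapses, Nrn1 encodes neuritin, a membrane-anchored protein that promotes neurite growth, and Homer1 encodes scaffold proteins that tie metabotropic glutamate receptors to other postsynaptic proteins.

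The share of probes that stood well above background was 34.3% to 41.1% per array. Each value is a log2 signal relative to the array's 75th percentile (over probes well above background on all 16 arrays) unless it is called an intensity. The lowest intensity that counted as well above background lay between 6.77 and 10.1 on the 16 arrays. All P6 arrays lay on 1 slide and all P3 arrays on another, and age therefore cannot be told apart from slide. On each slide Kir2.1 and control pools occupied different rows, so row and treatment cannot be told apart either. Cdhr1, by which the cells were selected, had a high signal throughout (3.75 ± 0.25 in P6 Kir2.1, 3.08 ± 0.33 in P6 control, 2.75 ± 0.43 in P3 Kir2.1 and 3.31 ± 0.33 in P3 control pools, SD, n = 4 each). Of 10 mitral and tufted cell markers, 8 to 9 were well above background in each pool, and Lhx5 was so on no array.

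The 6 genes differed first in whether they could be measured. Nrn1 was well above background in all 16 pools. At least 1 probe of Nptx2 and of Homer1 was so in most pools, Inhba in 3 pools, Nptx1 in 1 pool and Bdnf in none. Testing was limited to probes whose signal was well above background in 4 pools or more, which left 5 of the 11 probes, namely 1 of Nptx2, 3 of Homer1 and 1 of Nrn1. Bdnf, Inhba and Nptx1 had no tested probe, so no count below covers all 6 genes. A probe can be dim through its own affinity for its target, so levels of different probes are not compared.

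**Figure D1:**
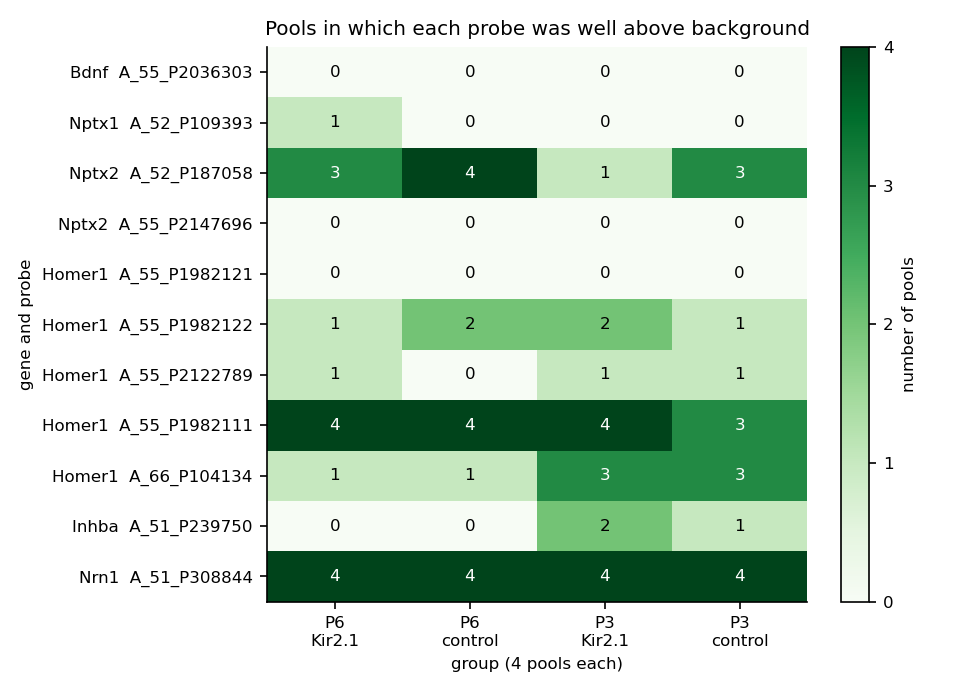
Number of pools, of 4 in each group (columns), in which each of the 11 probes (vertical axis) was well above background; darker green means more pools. Nrn1 is at 4 in every group and Bdnf at 0 in every group, and Nptx2 probe A_52_P187058 has 3, 4, 1 and 3 pools from left to right.

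Among the secreted ligands, Bdnf (chr2:109674700-109727043, GRCm38.p6) was read by 1 probe. Its intensity was between 3.78 and 7.11 in P6 Kir2.1 pools, 2.44 and 8.67 in P6 control pools, 2.41 and 6.64 in P3 Kir2.1 pools, and 1.89 and 4.78 in P3 control pools. No pool was well above background, the 4 ranges overlapped, and no fold is given. The values are bounds set by the probe's background and not a measured absence of Bdnf.

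Among the 7 start sites of Bdnf with a RefSeq promoter window (GRCm38.p6, 250 bases before to 50 after the start), 1 window held TGACG, the core of the cAMP response element through which CREB acts. It is printed because CREB binds this element in many activity-induced genes. The capitals mark the match on the opposite strand, whose first base lies at position -35 from the start.
Bdnf, chr2:109692186-109692485, plus strand: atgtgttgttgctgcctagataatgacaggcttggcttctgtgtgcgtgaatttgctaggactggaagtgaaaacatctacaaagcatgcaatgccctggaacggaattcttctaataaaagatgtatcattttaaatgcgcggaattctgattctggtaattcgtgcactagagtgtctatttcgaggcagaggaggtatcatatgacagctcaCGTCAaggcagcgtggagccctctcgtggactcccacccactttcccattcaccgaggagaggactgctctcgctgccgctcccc

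The other ligand, Inhba (chr13:16004256-16031609, GRCm38.p6), had intensities of 1.53, 1.77, 1.81 and 1.78 in P6 Kir2.1 pools 1 to 4, and 1.76, 1.79, 5.59 and 1.66 in P6 control pools. In P3 Kir2.1 pools the intensities were 292, 2.12, 6.94 and 14.0, and in P3 control pools 2.23, 1.97, 33.7 and 2.02. Only pools 1 and 4 of P3 Kir2.1 and pool 3 of P3 control were well above background, and no P6 pool was. In log2 units Inhba averaged -10.02 ± 0.30 in P6 Kir2.1 pools, -9.24 ± 0.97 in P6 control pools, -6.60 ± 2.89 in P3 Kir2.1 pools and -8.41 ± 1.93 in P3 control pools (SD, n = 4 each). Most of these values are background, so the groups are not ranked by them. On average Inhba was at least 2.49-fold lower in P6 than in P3 Kir2.1 pools, set against the P6 background. This bound was 1.02-fold without P3 Kir2.1 pool 1 and 5.05-fold without pool 2. The fall did not pass when probes well above background on at least 1 array were fitted (-3.42, adjusted p = 0.253 in limma). In control cells the P3 mean lay below the P6 background, so no fold is given. Under the main filter Inhba had no tested probe, and no difference from control is given at either age. The Inhba promoter window held none of the motifs searched.

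Of the pentraxins, Nptx1 (chr11:119538719-119547820, GRCm38.p6) was well above background in P6 Kir2.1 pool 3 alone, at an intensity of 20.2. Its other P6 Kir2.1 pools were at 1.54, 1.77 and 1.75, P6 control pools lay between 1.62 and 7.44, P3 Kir2.1 pools between 1.95 and 2.37, and P3 control pools between 2.06 and 6.64. The same pool was also the highest of all 16 for Nptx2.

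Nptx2 (chr5:144545887-144557478, GRCm38.p6) had the lowest adjusted p of the members in each Kir2.1 comparison within an age, and its values were lower on average in Kir2.1 cells than in control cells at both ages, without passing the test at either. Probe A_52_P187058 gave -7.71, -6.82, -3.34 and -6.39 in P6 Kir2.1 pools 1 to 4, against -4.44, -3.85, -5.05 and -4.84 in P6 control pools. Pool 3 of Kir2.1 lay above every control pool and its other 3 pools lay below every one. At P3 the values were -7.67, -6.94, -8.83 and -7.34 in Kir2.1 pools, against -6.40, -5.66, -6.26 and -7.02 in control pools. Pool 2 of Kir2.1 lay just above the lowest control pool, and the other 3 were below them all. Hence 6 of 8 Kir2.1 pools were below every control pool of the same age. Among them, P6 pool 1 and P3 pools 1, 3 and 4 were not well above background. The lowest P3 control pool, pool 4, was not either, so the order at P3 is partly one of background signals. The probe was well above background in 3 P6 Kir2.1, 4 P6 control, 1 P3 Kir2.1 and 3 P3 control pools, so the P3 Kir2.1 mean of -7.70 ± 0.81 (SD, n = 4) lies close to background. The gene's other probe, A_55_P2147696, was well above background on no array and shows nothing on this difference.

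The Kir2.1 minus control difference of Nptx2 was -1.52 at P6 (SE 0.75, 95% interval -3.13 to 0.09, adjusted p = 0.319 in limma), from means of -6.07 ± 1.90 in Kir2.1 and -4.55 ± 0.53 in control pools (SD, n = 4 each). At P3 it was -1.36 (SE 0.75, 95% interval -2.97 to 0.25, adjusted p = 0.839 in limma), from -7.70 ± 0.81 in Kir2.1 and -6.34 ± 0.55 in control pools. The mean of both differences was -1.44 (SE 0.53, 95% interval -2.58 to -0.30), which corresponds to 0.369 of the control signal, and its adjusted p was 0.25 in limma. The interaction, the P6 difference minus the P3 difference, was -0.16 (95% interval -2.43 to 2.12, adjusted p = 0.976 in limma), an interval wide enough for large differences in either direction. With normexp background correction, which lifts dim signals, the differences were smaller, -0.61 at P6 and -0.30 at P3, and neither passed.

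**Figure D2:**
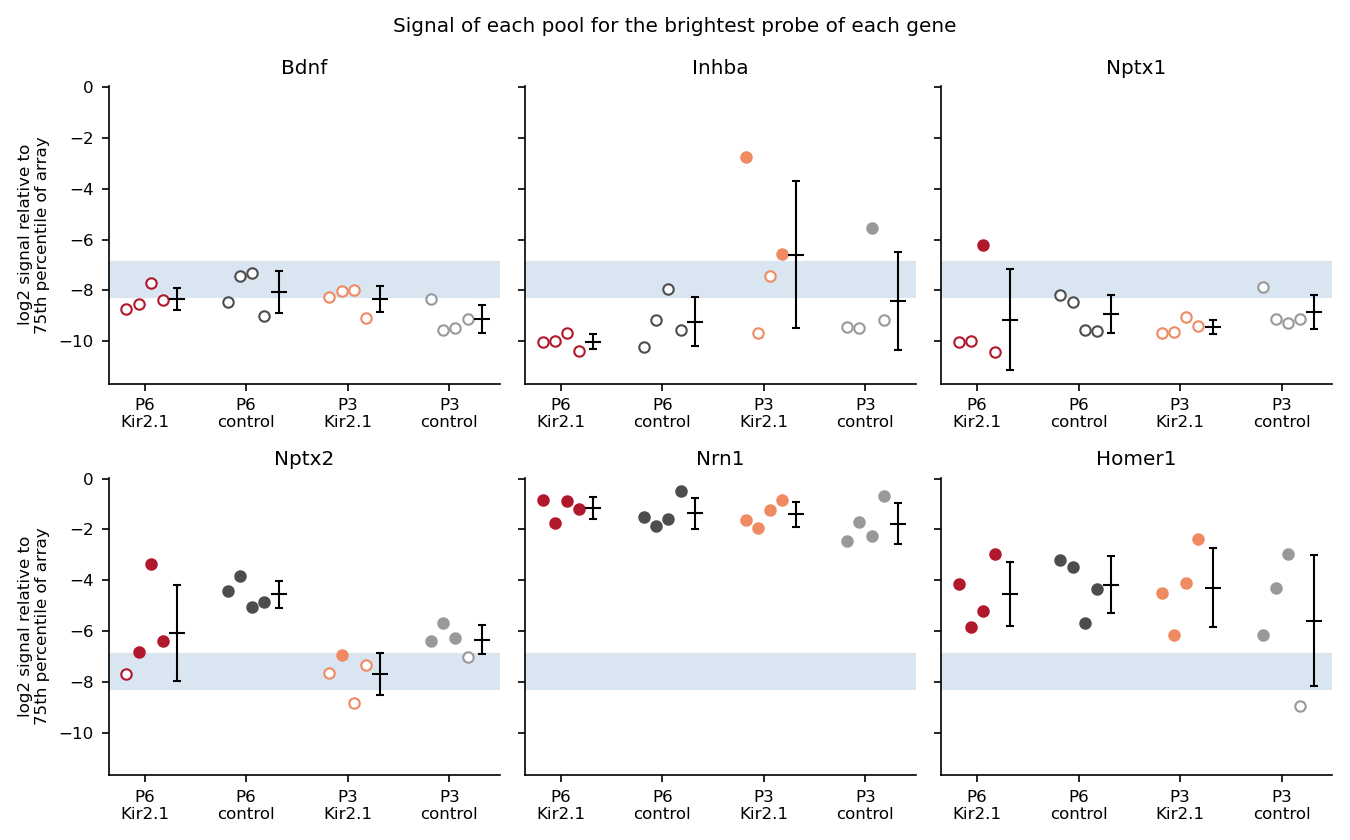
Log2 signal of each pool (vertical axis, relative to the 75th percentile of its array) in the 4 groups for the brightest probe of each gene; filled circles are well above background, open circles are not, black bars are the mean ± SD of 4 pools, and the blue band is the range over arrays of the lowest signal well above background. Nptx2 shows 1 P6 Kir2.1 pool at -3.34 above all others, and the Bdnf pools are all open circles.

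The Nptx2 result depended on P6 Kir2.1 pool 3. Without it the 3 remaining P6 Kir2.1 pools averaged -6.97 ± 0.67 (SD, n = 3), the difference at P6 was -2.43 with an adjusted p of 0.0374 in limma, and the mean over both ages was -1.89 with an adjusted p of 0.0294. Of all 24010 tested probes, 1.27% passed at P6 and 0.6% as the mean in that fit. With any other single pool left out, the difference at P6 lay between -1.69 and -0.97 and did not pass. Pool 3 had the lowest share of probes well above background of the 16 arrays, 34.3%. The labels give no reason to leave it out, and the values with all 16 pools are the ones compared.

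**Figure D3:**
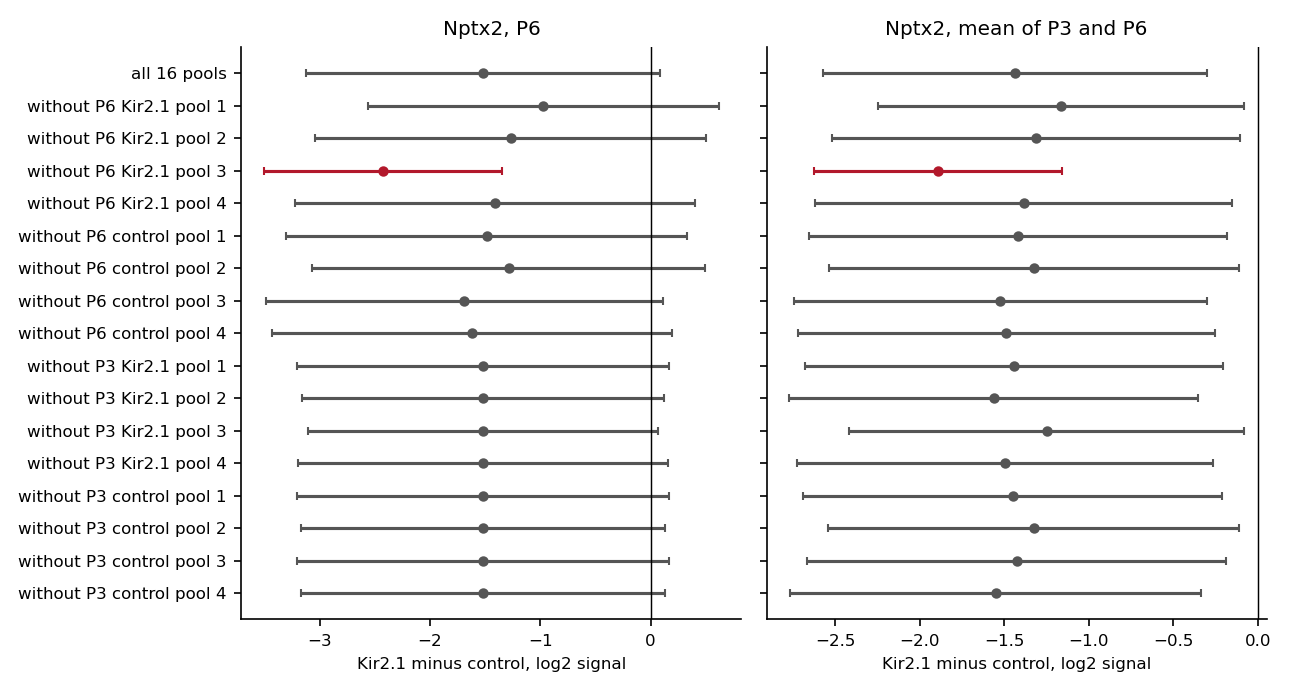
Kir2.1 minus control difference of Nptx2 in log2 units (horizontal axis) with its 95% confidence interval, at P6 (left) and as the mean of P3 and P6 (right), with all 16 pools (top) and with each pool left out in turn; red marks an adjusted p under 0.05. Only the values without P6 Kir2.1 pool 3, -2.43 and -1.89, are red.

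Markers of bulb interneurons, which carry inhibition in the bulb, were also lower in most Kir2.1 pools at P6. The summed signal of 12 interneuron markers, in percent of the array's 75th percentile, was 95.3, 267, 127 and 53.8 in P6 Kir2.1 pools 1 to 4, against 760, 422, 225 and 253 in P6 control pools. At P3 it was 78.5, 101, 70.5 and 66.5 in Kir2.1 pools, against 49.0, 51.1, 89.2 and 55.4 in control pools. The sums were thus lower in most Kir2.1 pools at P6 but mostly higher in Kir2.1 pools at P3, where Nptx2 was lower on average too. P6 Kir2.1 pool 3, with the highest Nptx2 value, had a sum of 127, below all 4 control pools of its age. Of the 12 markers, 6 to 8 were well above background in a P6 Kir2.1 pool, 9 to 10 in a P6 control pool, 6 to 8 in a P3 Kir2.1 pool and 5 to 8 in a P3 control pool. Calb1 was well above background on no array, Penk in no Kir2.1 pool of either age, Calb2 in no P6 control and no P3 Kir2.1 pool, and Dlx1 in no P3 pool. Gad2, an enzyme that makes GABA, averaged -4.70 ± 2.76 in P6 Kir2.1 pools and -0.96 ± 1.31 in P6 control pools (SD, n = 4 each). At P3 Gad2 averaged -4.06 ± 0.65 in Kir2.1 pools and -7.83 ± 2.41 in control pools. Gad2 does not stand for the list at P3. Of the 10 tested interneuron markers, 5 Kir2.1 minus control differences were above 0 and 5 below at P3 (median 0.11). At P6, 1 was above 0 and 9 were below (median -2.71). The part of interneuron RNA in the Nptx2 difference was not tested. The summed signal of 5 vascular markers, in the same unit, was 327, 330, 9.89 and 3.75 in P6 Kir2.1 pools 1 to 4, against 17.3, 4.67, 10.2 and 2.74 in P6 control pools. Pools 1 and 2, which stand apart in this, had the lowest Nptx2 values of their group, and the Nptx2 difference at P6 was -0.97 without pool 1 and -1.27 without pool 2. The part of vascular RNA was not tested either. Over 5 other marker lists the medians of the summed signal at P6 were also lower in Kir2.1 than in control pools, at 20.5 against 44.7 for astrocytes, 71.7 against 177 for olfactory sensory neurons, 47.7 against 66.8 for microglia, 122 against 170 for oligodendrocytes and 750 against 1233 for ensheathing glia. The ranges of Kir2.1 and control pools overlapped in each of these lists. The mitral and tufted sum ran the other way at P6, at 1876 to 3099 in Kir2.1 pools and 1068 to 1859 in control pools, with no overlap. This linear sum weighs bright markers most and includes Cdhr1, by which the cells were selected. Of the 9 tested markers of that list, 7 were above 0 at P6 and 2 below (Tbr1 -0.18, Nrp1 -0.29). Only Reln passed, higher in Kir2.1 cells by 3.89 at P6 (adjusted p = 0.0223 in limma), where 1.61% of all tested probes passed. It also passed as the mean of both ages (adjusted p = 0.0132 in limma), where 0.75% of all passed. Reln was well above background in 4 P6 Kir2.1 pools (mean -4.35) but in only 1 P6 control pool (mean -8.24). The size of its P6 difference therefore rests on background signals. The part of these shifts in the P6 differences of Nptx2, or of Scg2 and Penk given later, was not tested. In pools of cells, fewer cells with a transcript and less of it per cell cannot be told apart.

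**Figure D4:**
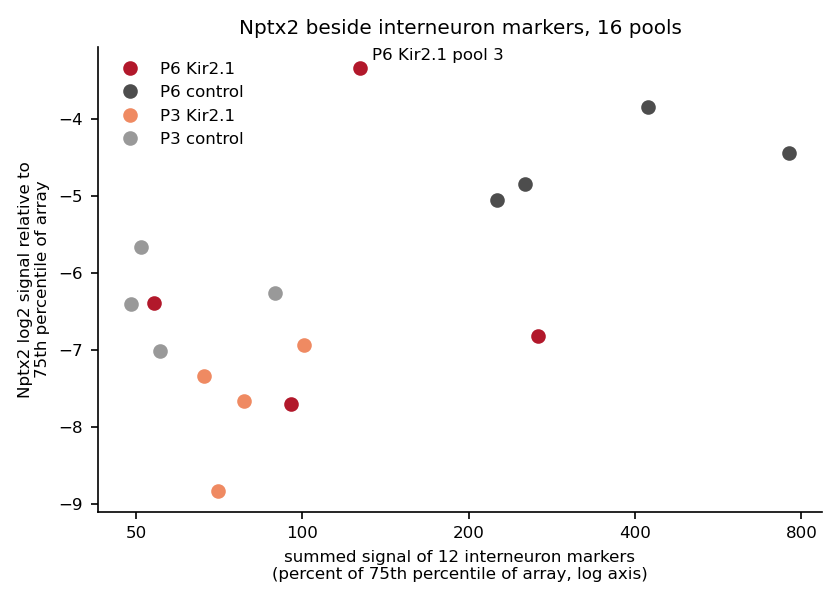
Nptx2 log2 signal of each of the 16 pools (vertical axis, relative to the 75th percentile of its array) against the summed signal of 12 interneuron markers (horizontal log axis, percent of the 75th percentile). The 4 P6 control pools lie between 225 and 760, and P6 Kir2.1 pool 3 combines a marker sum of 127 with an Nptx2 value of -3.34.

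Nrn1 (chr13:36725622-36734477, GRCm38.p6) was measured in every pool and its 4 groups overlapped. It gave -0.84, -1.74, -0.86 and -1.20 in P6 Kir2.1 pools, against -1.51, -1.88, -1.60 and -0.48 in P6 control pools. At P3 it gave -1.61, -1.95, -1.22 and -0.85 in Kir2.1 pools, against -2.45, -1.72, -2.25 and -0.67 in control pools. The single highest pool was a control pool at each age. The Kir2.1 minus control difference was 0.21 at P6 (95% interval -0.70 to 1.13, adjusted p = 0.845 in limma) and 0.36 at P3 (95% interval -0.55 to 1.28, adjusted p = 0.937). As the mean of both ages it was 0.29 (95% interval -0.36 to 0.93, adjusted p = 0.724 in limma), so the data bound a shared change of Nrn1 to between 0.778 and 1.91 times the control signal at 95% confidence. In order of mean level the groups were P6 Kir2.1 (-1.16 ± 0.42), P6 control (-1.37 ± 0.61), P3 Kir2.1 (-1.41 ± 0.48) and P3 control (-1.77 ± 0.80, SD, n = 4 each), and no neighbours in this order differed beyond their SD. Its SD within groups, 0.59, was the smallest of the 5 tested probes, against a median of 0.72 for 1953 probes of like brightness.

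Homer1 (chr13:93303757-93405129, GRCm38.p6) was read by 5 probes, 2 of them annotated to one RefSeq transcript and 3 to another. Homer1 gives a short form, known as an immediate early transcript, and long scaffold forms, but the files do not say which form each probe reads. Of its 2 promoter windows, the one at the gene's first base held 3 matches of the CREB core TGACG and the other held none. The window is printed because it held more matches than any other window of these genes, and the capitals mark them at positions -56, -40 and -14.
Homer1, chr13:93303507-93303806, plus strand: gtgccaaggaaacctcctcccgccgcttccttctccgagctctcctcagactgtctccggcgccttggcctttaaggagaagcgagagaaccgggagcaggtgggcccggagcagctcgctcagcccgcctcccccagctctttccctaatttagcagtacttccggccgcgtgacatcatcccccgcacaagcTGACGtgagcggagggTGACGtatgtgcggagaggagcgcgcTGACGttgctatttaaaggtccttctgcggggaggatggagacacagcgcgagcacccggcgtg

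Both strands were searched, and the core lies within the full element TGACGTCA. Over 10 windows of Bdnf, Homer1 and Inhba, 2 held the core, against 20.8% of the 32851 promoter windows in the table, and none held the full element, against 1.79%. The AP-1 motif TGANTCA was in 1 Bdnf window, against 7.81% of all windows, and the E-box CACGTG was in none, against 7.15%. A match is a description of letters and not a binding site. Windows of Nptx1, Nptx2 and Nrn1 were not used here.

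Homer1 probe A_55_P1982111, well above background in all pools but P3 control pool 4, gave -4.15, -5.85, -5.22 and -2.97 in P6 Kir2.1 pools, against -3.19, -3.47, -5.69 and -4.33 in P6 control pools. At P3 it gave -4.51, -6.17, -4.12 and -2.38 in Kir2.1 pools, against -6.16, -4.32, -2.98 and -8.94 in control pools. The groups overlapped at each age, and the pools of P3 control were the most widely spread. The groups averaged -4.55 ± 1.26 in P6 Kir2.1, -4.17 ± 1.12 in P6 control, -4.30 ± 1.55 in P3 Kir2.1 and -5.60 ± 2.58 in P3 control pools (SD, n = 4 each), and no neighbours in the order of these means differed beyond their SD. Its SD within groups was 1.73, against a median of 1.39 for 2425 probes of like brightness. The Kir2.1 minus control difference was -0.38 at P6 (95% interval -2.86 to 2.11, adjusted p = 0.904 in limma) and 1.31 at P3 (95% interval -1.18 to 3.79, adjusted p = 0.924). The P3 difference was 0.19 when P3 control pool 4, the one not well above background, was left out.

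The other tested Homer1 probes were well above background in fewer pools. A_66_P104134 was well above background in 8 pools, 1 of P6 Kir2.1, 1 of P6 control, 3 of P3 Kir2.1 and 3 of P3 control, and A_55_P1982122 in 6 pools (1, 2, 2 and 1 in the same groups). Over the 3 tested probes, the Kir2.1 minus control difference ranged between -1.45 and -0.19 at P6 (adjusted p between 0.528 and 0.904 in limma) and between 0.39 and 1.31 at P3 (adjusted p between 0.924 and 0.953). All 3 were below 0 at P6 and above 0 at P3, but A_66_P104134 was above 0 at P6 (0.010 to 0.072) with scaling over all gene probes, quantile normalization or the deposited value table, and A_66_P104134 and A_55_P1982122 were below 0 at P3 (-0.018 and -0.097) with normexp. The probes also share their pools and their gene. The interactions, between -2.22 and -0.58, did not pass (adjusted p between 0.663 and 0.853 in limma). Probe A_55_P2122789 was well above background in 3 pools and A_55_P1982121 in none. Over the 16 arrays, Pearson correlations between pairs of the 3 tested Homer1 probes ran between 0.028 and 0.30, with many of the values of 2 of them at background.

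**Figure D5:**
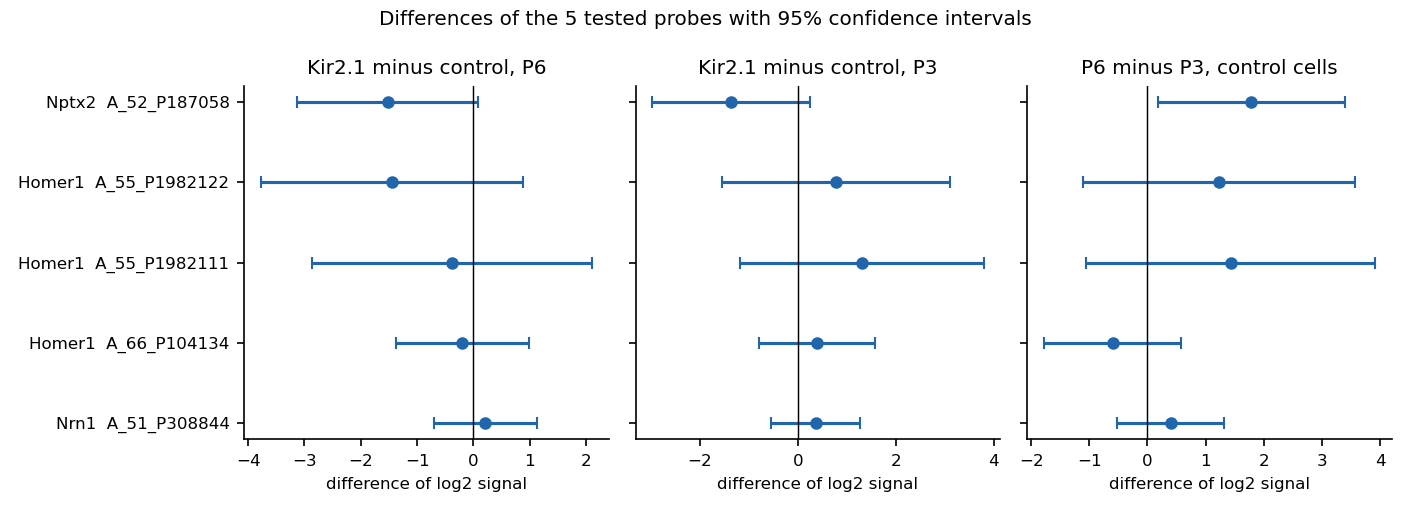
Difference of log2 signal (horizontal axes) for the 5 tested probes with 95% confidence intervals from limma, for Kir2.1 minus control at P6 (left) and at P3 (middle), and for P6 minus P3 in control cells (right). The Kir2.1 intervals all include 0, and the Nptx2 interval in the right panel lies above 0, with its lower end at 0.18.

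Across the members, 0 of 5 tested probes passed in the Kir2.1 comparison at P6 (1.61% of all 24010 tested probes passed), and 0 of 5 at P3 (0.0125% of all). None passed as the mean of both ages (0.75% of all) or in the interaction of age and Kir2.1 (0.0875% of all). In limma at an unadjusted p under 0.05, the member counts were 0 at P6, 0 at P3, 1 as the mean (Nptx2) and 0 in the interaction, against 17.1%, 6.48%, 13.4% and 10.4% of all tested probes. The median difference over the 5 probes was -0.38 at P6 and 0.39 at P3, beside -0.11 and -0.02 over all tested probes. No tested member probe separated Kir2.1 from control pools at P6 (8.75% of all tested probes did) or at P3 (6.76% of all), nor P6 from P3 pools of Kir2.1 cells (10.3% of all). For the brightest tested probe of each gene, Pearson's r over 16 arrays was 0.09 between Nptx2 and Homer1, -0.02 between Nptx2 and Nrn1 and -0.03 between Homer1 and Nrn1.

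Between ages, Nptx2 was higher on average at P6. In control cells each P6 pool (-5.05 to -3.85) lay above each P3 pool (-7.02 to -5.66), a separation found in 12.5% of all tested probes in this comparison. The P6 minus P3 difference of Nptx2 was 1.79 in control cells (SE 0.75, adjusted p = 0.231 in limma) and 1.63 in Kir2.1 cells (SE 0.75, adjusted p = 0.337). Without P6 Kir2.1 pool 3 the difference in Kir2.1 cells was 0.72. Interneuron markers moved the same way in control cells, with the sums given above, but so did other lists. Medians of the summed signal in P3 and P6 control pools were 328 and 1233 for ensheathing glia and 8.59 and 44.7 for astrocytes. They were 33.3 and 66.8 for microglia, 61.3 and 170 for oligodendrocytes, 49.8 and 177 for sensory neurons and 3.45 and 7.45 for vascular markers. The mitral and tufted median was 2037 at P3 and 1631 at P6. The part of these shifts was not tested. Nrn1 had P6 minus P3 differences of 0.40 in control cells (adjusted p = 0.681) and 0.25 in Kir2.1 cells (adjusted p = 0.834), both in limma. The Homer1 probes ranged between -0.60 and 1.43 in control cells and between -1.18 and -0.25 in Kir2.1 cells. Of the 5 member probes none passed in control cells (2.3% of all tested probes did) or in Kir2.1 cells (0.833% of all), and 1 in each, Nptx2, had an unadjusted p under 0.05 (17.6% and 14.5% of all).

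In order of mean level, Nptx2 ran P6 control, P6 Kir2.1, P3 control and P3 Kir2.1. Only the last step, of 1.36, was larger than the SD of both its neighbours. The genes whose signal followed Nptx2 most closely over the 16 arrays, among all tested probes of other named genes, were Hspa4 (Pearson's r = 0.88) and Ntng1 (r = 0.87). For Homer1 they were Cwf19l1 (r = 0.78) and Noc3l (r = 0.75), and for Nrn1 they were Rab3gap2 (r = 0.78) and Mfsd14a (r = 0.76). These are descriptions over pools that share slides and groups.

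The partners of these proteins were read from lists chosen with earlier results of these data known. Unless an age is given, the values that follow are Kir2.1 minus control as the mean of both ages, from limma. Of 12 genes that process or receive BDNF or a related neurotrophin, 9 were tested and 0 passed at P6, at P3 or as the mean, with 3, 1 and 1 at an unadjusted p under 0.05 (17.1%, 6.48% and 13.4% of all tested probes, which serve for the next lists too). The 2 with the lowest p in the mean of both ages were Cpe, which sorts and trims neuropeptide precursors (-0.61, adjusted p = 0.0931), and Furin, a protease that cuts precursors (-0.88, adjusted p = 0.418). Of 10 genes around the pentraxins, 8 were tested and 0 passed, with 2, 0 and 1 at an unadjusted p under 0.05 in the same order. The AMPA receptor subunit Gria1 gave 1.22 (adjusted p = 0.132) and Cacng2, an AMPA receptor auxiliary subunit, gave 0.54 (adjusted p = 0.402). Of 12 Homer-binding and related genes, 9 were tested and 0 passed, with 2, 0 and 1 at an unadjusted p under 0.05. The calcium release channels Itpr1 and Ryr1 gave -1.63 (adjusted p = 0.181) and -2.23 (adjusted p = 0.486). The only paralog of neuritin listed, Nrn1l, gave -1.99 (adjusted p = 0.543).

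Of 14 activin pathway genes, 9 were tested. Inhbe, an inhibin beta subunit, rose by 0.94 as the mean of both ages (SE 0.17, adjusted p = 0.0233 in limma), and no other passed in a Kir2.1 comparison. Of all tested probes 0.75% passed as the mean. At an unadjusted p under 0.05 in limma there were 1 at P6, 1 at P3 and 2 as the mean (17.1%, 6.48% and 13.4% of all). The Inhbe call did not hold under 7 of 27 alternatives, and its value was 0.01 with normexp background correction. Inhbb, another beta subunit, gave -1.92 (adjusted p = 0.304). Of 23 regulators of activity-driven transcription and immediate early genes, such as Creb1, Fos and Npas4, 16 were tested and 0 passed at P6, at P3 or as the mean, with 0 at an unadjusted p under 0.05 in each. Hdac5, a histone deacetylase, gave -0.38 (adjusted p = 0.445) and Nr4a1, an immediate early nuclear receptor, gave -0.52 (adjusted p = 0.62).

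Other late activity-induced genes did contain calls. Of 26 listed, 19 were tested. As the mean of both ages, 1 passed and was lower in Kir2.1 cells (0.75% of all tested probes passed). Of the 19 values, 16 were below 0, with a median of -0.72, where 54.9% of all tested probes were below 0, with a median of -0.07. At P6 2 passed (1.61% of all) and at P3 1 (0.0125% of all), and these were lower in Kir2.1 cells. The calls at P6 and the values below 0 include Penk, which entered the test through control pools alone. Because of this, and because the list was chosen with earlier results of these data known, the counts are descriptions and no independent support. The gene that passed as the mean was Scg2, a secretogranin of dense-core vesicles, with a mean difference of -4.32 (SE 0.46, adjusted p = 0.0018 in limma). At P6 it averaged -3.71 in Kir2.1 and -0.68 in control pools (difference -3.03, adjusted p = 0.0351). At P3 it averaged -8.00 in Kir2.1 pools, 2 of them well above background, and -2.39 in control pools, all well above background (difference -5.61, adjusted p = 0.00752). The Scg2 call held in 27 of 27 alternatives as the mean, but was lost in 13 of 28 at P6 and in 3 of 28 at P3. Among the losses were an adjusted p of 0.157 at P6 with P6 arrays alone and of 0.0676 at P3 with replicate number as a block. With normexp the Scg2 difference was -2.48 at P6, -2.29 at P3 and -2.38 as the mean. Penk, the enkephalin precursor and also an interneuron marker, was the other gene that passed at P6. It reached the test through 3 P6 and 1 P3 control pools, since no Kir2.1 pool was well above background, so only a bound is given. Its log2 mean at P6 was -9.41 in Kir2.1 and -3.09 in control pools, and Penk was at least 28.4-fold lower in Kir2.1 pools. This bound was 14.5-fold without P6 control pool 1, 18.5-fold without pool 2 and 72.7-fold without pool 3. The Penk call at P6 was lost in 7 of 27 alternatives. Its adjusted p in limma was 0.194 with P6 arrays alone. The other losses came with single P6 pools left out (adjusted p between 0.0510 and 0.0651 in limma). The interneuron marker sums given beside Nptx2 apply to Penk as well.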

How the data were processed

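Pools of 10 mitral cells were hybridised to 16 one-colour (Cy3) Agilent arrays. Per the labels' protocols, cDNA of each cell was amplified by 30 PCR cycles before pooling. Per the file headers, arrays were read with Agilent Feature Extraction 10.7.3.1, and the deposited scanner tables give a background-subtracted spot intensity on a linear scale. The deposited value table holds the ratio of that intensity to the 75th percentile of that array's gene spots (the 2 sources differed by a factor of 0.995 to 1.006), it is linear and not centred, and its medians per array lay between 0.0395 and 0.13.

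Control and outlier spots were left out (83 of 55681 probes lost all spots) and spots of a probe averaged. Log2 intensity was scaled by the array's 75th percentile over 12103 probes well above background on all arrays. The 24010 probes well above background on at least 4 arrays were fitted with limma 3.58.1 (R 4.3.3, lmFit and eBayes, 4 group means, 12 residual and 1.64 prior degrees of freedom), tested on simulated data. Every adjusted p in the text is from limma with Benjamini-Hochberg adjustment over these probes, threshold 0.05, and values in brackets after ± are SD over pools. The number of arrays limits the precision. Where no pool of a group was well above background, a fold is given as at least N, against the higher of the array's lowest signal well above background and the probe's own. Replicate numbers did not pair the pools (24 same-numbered pairs, correlation of deviations between -0.03 and 0.02), and the highest correlation between 2 arrays was 0.874.

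Symbols came from RefSeq accessions of GRCm38.p6 (26546 of 28079 probes with an accession matched); promoter sequences are RefSeq's for that build. Members, lists and tests were chosen with earlier results of these data known. Named beyond the members were partner genes called in a Kir2.1 comparison, the 2 of each list with the lowest p in the mean of both ages, and the 2 genes most alike in pattern. The files hold no mean spot signal, so the normexp alternative used the median signal and median background. No alternative fit was added to those planned, but earlier results of these data were known, so the alternatives were not blind to the data.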

Additional observations from a re-analysis of the deposited data

Results flagged for a closer look

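In 4 of 44 combinations of probe and group, 1 pool stood apart from the other 3 by Dixon's test at the 95% level, which chance does in about 1 of 20 groups. Nptx1 was high in P6 Kir2.1 pool 3, at -6.2, the only pool in which it was well above background, while the other 3 pools lay between -10.4 and -10.0. Nptx1 was also high in P3 control pool 1, at -7.89 without being well above background, while the others lay between -9.27 and -9.13. Homer1 probe A_55_P2122789 was high in P3 Kir2.1 pool 1, at -6.26, while the others lay between -8.33 and -8.09. Inhba was high in P3 control pool 3, at -5.53, while the others lay between -9.50 and -9.17. No interaction of age and Kir2.1 passed for a member probe.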

How the results depend on the processing

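Each value of the 5 tested member probes, of Nptx2, Homer1 and Nrn1, was recomputed without each of the 16 pools in turn and under 11 to 12 other settings. Bdnf, Inhba and Nptx1 are not covered by these counts. Of 802 recomputed values, 768 kept their direction and their side of the threshold, 2 newly passed and 32 changed sign. None of those that changed sign passed before or after. The 2 that passed were Nptx2 without P6 Kir2.1 pool 3 (-2.43 at P6, -1.89 as the mean), so the count of members called ranged over 0 to 1 in both comparisons when pools were left out. Without that pool, 1.27% of all tested probes passed at P6 and 0.6% as the mean. Normexp gave -0.10 for A_55_P1982122 and -0.018 for A_66_P104134 at P3, and -0.052 for A_55_P1982111 and -0.15 for A_66_P104134 as the mean. A_66_P104134 at P6 was 0.020 with scaling over all gene probes, 0.072 with quantile normalization and 0.01 with the deposited value table. The interaction was 0.012 and 0.051 for Nptx2 with the first 2 of these, and 0.021 and 0.0077 for Nrn1 with scaling over all gene probes and the deposited table. With single pools left out, A_55_P1982111 ranged over -0.90 to 0.056 at P6, -0.092 to 0.90 as the mean and -0.88 to 0.39 between ages in Kir2.1 cells. A_66_P104134 ranged over -0.65 to 0.055 at P6 and -0.13 to 0.32 as the mean, A_55_P1982122 over -0.67 to 0.083 as the mean, and the interaction over -1.07 to 0.39 for Nptx2 and -0.52 to 0.15 for Nrn1. The causes were not tested. With replicate number as a block, 0 members passed in any comparison, and Nptx2 had adjusted p = 0.373 at P6, 0.865 at P3 and 0.309 as the mean (limma). The numbers do not pair the pools. Over all tested probes the calls numbered 386 at P6 (22 with P6 arrays alone, 189 with the block, 765 with normexp), 180 as the mean (80 with a filter of 1 array, 425 with an intensity trend) and 3 at P3 (0 with the block, 38 with array weights). Scaling over all gene probes moved the median P6 difference of all tested probes to 0.11, against -0.11, and the calls to 314 higher and 117 lower, against 197 and 189. Dim signals close to background limit what can be said of Bdnf, Inhba, Nptx1 and Nptx2 at P3.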
